A study of Mus musculus with 16 samples.

Results

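Receptors with which innate immune cells sense microbes, dead cells and antibodies, and the inhibitory receptors that restrain them, were examined in mouse liver. The set comprised the protein-coding genes in the deposited tables whose symbols begin with Clec, Tlr and a digit, Ms4a, Lilr, Pira, Pirb, Siglec, Cd300, Sirp, Fcgr, Fpr, Trem, Nlr, Naip, Havcr, Klr, Msr1, Marco, Mrc1, Ly86, Tyrobp or Aif1, without Clec4f, Clec7a, Clec1b, Fcgr1, Trem2 and Sirpa. It held 69 of the 5205 genes listed, where 162 annotated protein-coding mouse genes carry such symbols. Livers came from 16 male C57BL6 mice in 4 groups of 4, sequenced as whole tissue (bulk RNA-seq) after 32 weeks on diet. Control littermates (labelled WT, TSP1F/F, floxed for the thrombospondin 1 gene and without Cre) received a low-fat (LF) diet or the AMLN diet, which is rich in fat, sucrose, fructose and cholesterol and induces steatohepatitis. Platelet-specific knockout mice (labelled KO, TSP1ΔPf4) carried the same floxed alleles and Pf4-Cre, which is driven by a megakaryocyte promoter, and received the same diets. Recombination outside the platelet lineage was not assessed in these data. Each deposited table covered 1 genotype and listed only genes that its authors' comparison of the diets had given an unadjusted p-value under 0.05, so a diet difference was in part a condition for being listed and the diet tests below are not independent evidence of it. Of the 69 genes, 57 were listed in TSP1F/F mice and 35 in TSP1ΔPf4 mice. Only the 23 listed in both could be compared between genotypes.

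Innate receptors fall into families with distinct ligands. C-type lectin receptors and Toll-like receptors (TLRs) recognise sugars, lipids and nucleic acids from microbes or damaged cells at the cell surface or in endosomes, whereas NOD-like receptors (NLRs) and the NAIP proteins do so in the cytosol. Paired receptor families such as LILR, Siglec, CD300 and SIRP hold activating members, which signal through adaptor proteins such as Tyrobp and Fcer1g to the kinase Syk, and inhibitory members, which recruit phosphatases. In the liver these genes are known mainly from Kupffer cells, recruited monocyte-derived macrophages, dendritic cells and natural killer (NK) cells, and a few from sinusoidal endothelium and hepatocytes.

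The 3 members that passed a test in any comparison were Tlr13, Cd300c2 and Clec4e, and the 250 bases before their RefSeq transcription starts (GRCm38.p6, the assembly of mm10) are shown for that reason, 5′ to 3′ on the strand of the gene. Capitals mark the motifs found in them. The window of Tlr13 (chrX:106143025-106143274, plus strand) holds GAGGAAG, and its last 71 bases lie past the start that the deposited annotation gives for the gene. That of Cd300c2 (chr11:115001881-115002130, minus strand) holds AGGAAGT. That of Clec4e (chr6:123289872-123290121, minus strand) holds TATAAA and a match to TTGCNNAA that reads on the strand opposite to the one shown.
Tlr13: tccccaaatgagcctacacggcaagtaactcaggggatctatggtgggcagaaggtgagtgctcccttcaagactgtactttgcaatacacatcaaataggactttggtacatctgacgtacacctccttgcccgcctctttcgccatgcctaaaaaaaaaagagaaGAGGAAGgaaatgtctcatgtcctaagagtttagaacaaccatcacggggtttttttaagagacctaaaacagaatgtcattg
Cd300c2: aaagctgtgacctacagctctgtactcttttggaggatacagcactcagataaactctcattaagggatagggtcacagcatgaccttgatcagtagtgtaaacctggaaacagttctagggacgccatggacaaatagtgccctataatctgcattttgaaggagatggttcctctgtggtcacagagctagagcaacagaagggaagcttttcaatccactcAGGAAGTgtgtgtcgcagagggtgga
Clec4e: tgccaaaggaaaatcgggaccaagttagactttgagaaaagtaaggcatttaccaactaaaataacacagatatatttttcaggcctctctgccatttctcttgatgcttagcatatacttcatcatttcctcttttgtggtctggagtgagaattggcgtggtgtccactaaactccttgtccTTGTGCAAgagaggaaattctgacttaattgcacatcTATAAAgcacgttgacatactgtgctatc

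Promoter windows were matched for 59 of the 69 genes, and 8 motifs were searched on both strands. GAGGAAG, a form of the site bound by the myeloid factor PU.1, occurred in 28.8% of the members and in 12% of all 27025 genes with a window. AGGAAGT, a form that can overlap it, was found in 25.4% against 8.8%, and the sequence that joins both, GAGGAAGT, in 8.47% against 2.79%. The C/EBP-type motif TTGCNNAA stood at 22.0% against 10.8%, the ETS-IRF composite (GGAA and GAAA set 2 bases apart) at 5.08% against 2.68%, and the TATA box TATAAA at 20.3% against 14.3%. The NF-κB-type motif (GGGA and TTCC set 2 bases apart) was in 3.39% of the members and in 1.36% of all genes, and the AP-1-type motif TGANTCA in 6.78% and 7.82%. These are counts of letters in a window and say nothing about binding. Many members are neighbours in the genome and paralogs of each other, and 48 of the 69 lie in 13 chromosomal clusters with gaps under 500 kb, the fullest holding 7 members each (the Clec4 genes and, farther along, a group of Clec and Klr genes on chromosome 6, and the Ms4a genes on chromosome 19). Reads may be shared between close copies, so the values of Sirpb1a, Sirpb1b and Sirpb1c, of Lilrb4a and Lilr4b, and of the Naip, Klra, Clec4a and Ms4a6 genes are uncertain to that extent, and whether counting used the strand is not given in the sources used here.

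Library totals ran from 17127965 to 39753019 counts, and values are given as CPM, the counts per 1000000 counts of the library, listed for mouse 1 to 4 of a group. Depth differed with diet. Median totals were 18908942 on LF and 27661650 on AMLN in TSP1F/F mice, and 18838184 and 27148200 in TSP1ΔPf4 mice. This matters most for members near 0 on LF, and its part in the results was not tested. The targeted gene Thbs1 was listed in TSP1F/F mice only, at 0.313, 1.82, 0.717 and 0.375 CPM on LF and 1.94, 3.23, 13.3 and 10.1 CPM on AMLN, so its level in TSP1ΔPf4 liver was not analysed here. The hepatocyte markers Ttr and Serpina1a summed to 6179 to 8424 CPM on LF and 2695 to 5876 CPM on AMLN in TSP1F/F mice, and to 6873 to 8257 CPM on LF and 4235 to 5651 CPM on AMLN in TSP1ΔPf4 mice. These 2 sums were thus lower on AMLN, without overlap between diets in either genotype. Of single listed genes, 13.3% in TSP1F/F and 27.3% in TSP1ΔPf4 mice lay lower in this way. Only these 2 of a fixed list of 6 hepatocyte markers were listed in both genotypes. A diet difference was in part a condition for that, so they do not stand for hepatocyte genes in general. In 3 groups 1 mouse was the highest in most members. AMLN-fed TSP1F/F mouse 4 was the highest of its group in 46 of 57 members (80.7%, against 34.8% of all listed genes), and LF-fed TSP1F/F mouse 3 in 35 of the 52 with any counts in that group (67.3%, against 38.6%). AMLN-fed TSP1ΔPf4 mouse 4 was the highest of its group in 22 of 35 members (62.9%, against 44.4%). Among 8 markers of monocyte-derived macrophages listed in both genotypes (Adgre1, Cd68, Trem2, Gpnmb, Lyz2, Ccr2, Itgax and Mmp12), the summed level was 1894 CPM in the first of these mice and 381 to 576 CPM in the rest of its group, and 408 CPM in the second against 43 to 109 CPM. In the third it was 215 CPM against 124 to 149 CPM. Lyz2 made up much of these sums. Without it the first mouse was at 395 CPM against 101 to 212 CPM and the second at 29.2 CPM against 7.25 to 10.5 CPM. The third was then at 47.9 CPM, within the 39.7 to 53.2 CPM of the rest of its group. The part of these markers in the results was not tested. In whole tissue, fewer cells of a type and less RNA per cell cannot be told apart.

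On the AMLN diet, nearly all listed innate receptor genes had a higher mean than on LF in both genotypes. In TSP1F/F mice the mean was higher on AMLN in 55 of 57 members (67.5% of all listed genes), and the 4 AMLN-fed mice lay above the 4 LF-fed mice in 36 of 57 (33.9%). The exceptions were the scavenger receptor Marco, whose 4 AMLN-fed mice lay below the 4 LF-fed mice (13.3% of all listed genes did so), and the NOD-like receptor Nlrp12 (32.5% of listed genes had a lower mean). Of the 57 members, 47 passed the filter on low counts, with a median log2 fold change of 2.22 against 1.15 over all 2096 genes tested. Some, such as Tlr8 (0 to 5 counts on LF) and Sirpb1b (0 to 7), passed it through their AMLN counts. The member median is thus not independent of the filter. With both an adjusted p under 0.05 and a log2 fold change beyond 0.25 in either direction required, edgeR's quasi-likelihood test called 0 of the 47 (background 1.91%), while 42 were higher and 2 lower at an unadjusted p under 0.05 (background 53.0% and 27.1%). DESeq2 called 14 of the 47, where it called 31.0% of all genes tested. Without AMLN-fed mouse 4 and LF-fed mouse 3 the mean was again higher in 55 of 57 members and the groups did not overlap in 45 (45.7% of all listed genes).

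In TSP1ΔPf4 mice the mean on AMLN was higher in 33 of 35 members, where 44.2% of all listed genes were higher, and the groups did not overlap in 21 of 35 (21.4%). Clec2d, a lectin recognised by inhibitory NK receptors, and Fcgrt, the neonatal Fc receptor, were lower, and for Fcgrt the groups did not overlap (55.8% and 27.3% of listed genes were of these kinds). The 28 members that passed the filter had a median log2 fold change of 1.62 against -0.542 over all 3089 genes tested. Here too some, such as Tlr13 (2 to 11 counts on LF) and Cd300lb (3 to 10), passed through their AMLN counts. Their part in the median and in the calls is not independent of the filter. edgeR called 1 of the 28, Tlr13, as higher (background 0.906%), and DESeq2 called 20 of the 28 (background 36.9%). At an unadjusted p under 0.05, 24 were higher and 1 lower (background 33.8% and 51.9%). Without AMLN-fed mouse 4 the mean was higher in 33 of 35 members and the groups did not overlap in 22 (35.1% of all listed genes).

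**Figure D1:**
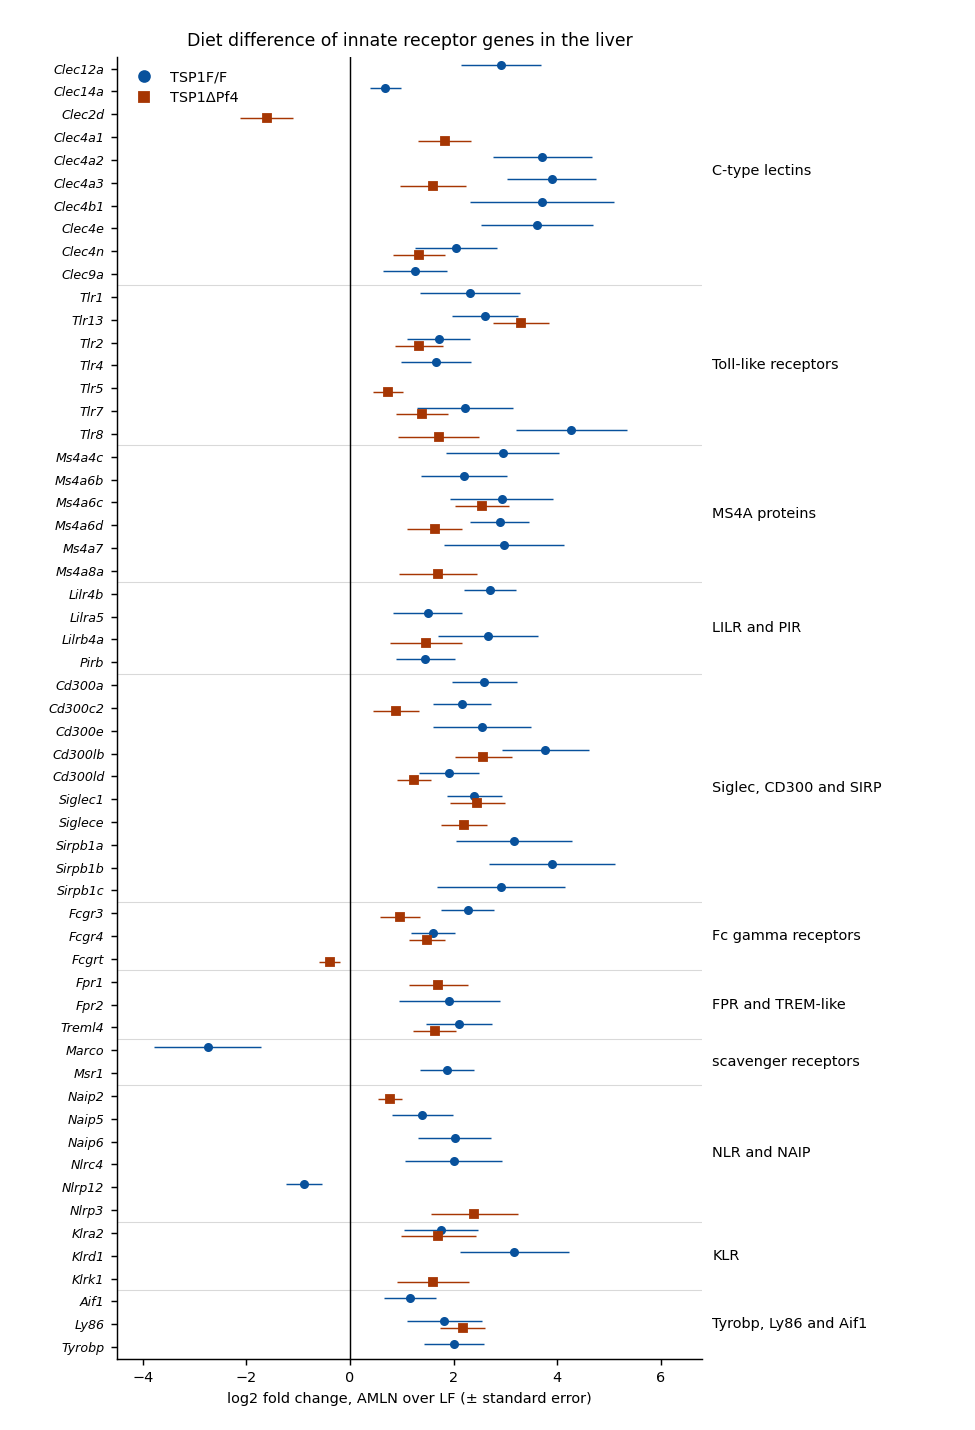
Fitted log2 fold change of each tested innate receptor gene, AMLN over LF diet (x axis, log2 scale), by gene and family (y axis), in TSP1F/F (blue circles, 47 genes) and TSP1ΔPf4 mice (brown squares, 28 genes), with bars for 1 standard error of edgeR's fit to 4 against 4 mice. All points lie right of 0 except Marco and Nlrp12 in TSP1F/F and Clec2d and Fcgrt in TSP1ΔPf4 mice.

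The 4 C-type lectins listed in both genotypes, all Clec4 genes of the chromosome 6 cluster, had a median log2 fold change of -2.38 between AMLN-fed TSP1ΔPf4 and AMLN-fed TSP1F/F mice. Among them Clec4b1 and Clec4e passed the filter on low counts through their TSP1F/F counts, so this median is not independent of that filter. Clec4n was at -1.53 and Clec4a3 at -1.05. Clec4e (Mincle), an activating receptor for mycobacterial glycolipid and for a protein released by dying cells, was at 0.209, 0, 0.607 and 0.188 CPM in LF-fed and 0.877, 0.943, 2.24 and 8.44 CPM in AMLN-fed TSP1F/F mice. It was at 0, 0, 0 and 0 CPM in LF-fed and 0.167, 0.0822, 0.383 and 0.689 CPM in AMLN-fed TSP1ΔPf4 mice. On AMLN all 4 TSP1ΔPf4 mice lay below all 4 TSP1F/F mice, and every LF-fed TSP1ΔPf4 mouse was at 0. The genotype difference on AMLN was a log2 fold change of -3.23 (SE 0.88, adjusted p = 0.0388) in the quasi-likelihood test of edgeR, adjusted after Benjamini and Hochberg, 1 of the 2 members called. Without AMLN-fed TSP1F/F mouse 4, the highest, it was -2.04 with an adjusted p of 0.18 in the same test. Clec4e passed the filter on low counts through its TSP1F/F counts, so the call is not independent of that filter. Within TSP1ΔPf4 mice the AMLN mean was 2.07 times a floor of 3 counts per library on LF, with AMLN-fed mouse 2 below that floor.

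Clec4n (Dectin-2), which binds fungal mannans, was at 0.678, 2.36, 4.85 and 0.375 CPM in LF-fed and 3.9, 5.39, 5.89 and 19.1 CPM in AMLN-fed TSP1F/F mice. The diets overlapped there and did not in TSP1ΔPf4 mice, at 1.91, 0.241, 1.64 and 0.902 CPM in LF-fed and 2.57, 2.84, 3.06 and 3.32 CPM in AMLN-fed TSP1ΔPf4 mice. The 4 AMLN-fed TSP1ΔPf4 mice, between 2.57 and 3.32 CPM, lay below the lowest AMLN-fed TSP1F/F mouse, with a log2 fold change of -1.53 (SE 0.49, adjusted p = 0.0757) by edgeR. Clec4b1, an activating lectin next to the DCIR genes, was at 0.104, 0.858, 0 and 0 CPM in LF-fed and 0.575, 0.719, 1.71 and 9.59 CPM in AMLN-fed TSP1F/F mice, where mouse 4 on AMLN was far above the rest. It was at 0, 0, 0 and 0 CPM in LF-fed and 0.3, 0, 0.67 and 0.0431 CPM in AMLN-fed TSP1ΔPf4 mice, so that the genotypes overlapped on AMLN, and the log2 fold change was -3.54 (SE 1.13, adjusted p = 0.0757) by edgeR. Within TSP1ΔPf4 mice its AMLN mean was 1.59 times the LF floor, but AMLN-fed mice 2 and 4 lay below that floor.

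Clec4a3, of the DCIR group, was at 0, 0.322, 0.551 and 0.263 CPM in LF-fed and 2.03, 3.5, 4 and 7.57 CPM in AMLN-fed TSP1F/F mice. In the other genotype it was at 0.0531, 0.676, 0.584 and 1.38 CPM in LF-fed and 1.83, 2.59, 1.12 and 2.71 CPM in AMLN-fed TSP1ΔPf4 mice. The diets did not overlap in TSP1F/F mice and did in TSP1ΔPf4 mice, and the genotypes overlapped on both diets. Clec4a1, of the same group, was listed in TSP1ΔPf4 mice only, at 1.11, 0.338, 0.525 and 0.265 CPM in LF-fed and 2.13, 2.3, 1.27 and 2.33 CPM in AMLN-fed TSP1ΔPf4 mice, and did not overlap between diets. Apart from Clec2d, listed in TSP1ΔPf4 mice only, the remaining lectins were listed in TSP1F/F mice. All 8 lectins tested there had fitted log2 fold changes above 0 (0.69 for the endothelial Clec14a to 3.89 for Clec4a3).

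Clec2d had a lower mean on AMLN. It was at 80.9, 103, 348 and 122 CPM in LF-fed and 31.1, 44.7, 33.3 and 106 CPM in AMLN-fed TSP1ΔPf4 mice, where 3 of the 4 AMLN-fed mice lay below every LF-fed mouse and LF-fed mouse 3 was far above the rest. The log2 fold change was -1.61 (SE 0.51, adjusted p = 0.2) by edgeR, not called. Per length of transcript, its mean in LF-fed TSP1ΔPf4 liver was 135 FPKM (fragments per kilobase of transcript, scaled to library size), next to Fcgrt at 140 FPKM, while the remaining 33 members of that table averaged at most 2.26 FPKM.

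Of the TLRs, 10 of 12 annotated genes were listed. Tlr13, an endosomal receptor for bacterial ribosomal RNA, had the largest fitted diet difference of the 28 members tested in TSP1ΔPf4 mice. It was at 0.835, 0.429, 0.331 and 0.863 CPM in LF-fed and 2.87, 1.48, 5.26 and 5.55 CPM in AMLN-fed TSP1F/F mice. In the other genotype it was at 0.106, 0.29, 0.117 and 0.584 CPM in LF-fed and 2.33, 3.37, 3.22 and 2.15 CPM in AMLN-fed TSP1ΔPf4 mice. In both, every AMLN-fed mouse lay above every LF-fed mouse. It rose in TSP1ΔPf4 mice with a log2 fold change of 3.30 (SE 0.54, adjusted p = 0.0496) by edgeR, and the fitted value in TSP1F/F mice was 2.61 (SE 0.63, adjusted p = 0.171). On AMLN the genotypes overlapped, at a log2 fold change of -0.45 (SE 0.47, adjusted p = 0.586), and the interaction of diet and genotype was 0.70 (SE 0.83, adjusted p = 0.825). The call in TSP1ΔPf4 mice was at the edge of the threshold. It remained in 1 of the 8 fits that each left out 1 mouse, with log2 fold changes of 3.04 to 3.95. Tlr13 passed the filter on low counts there through its AMLN counts, with 2 to 11 counts in LF-fed TSP1ΔPf4 mice. The call is thus not independent of that filter.

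Tlr2, the cell surface receptor for lipopeptides, was at 1.36, 4.34, 3.69 and 0.675 CPM in LF-fed and 4.48, 5.25, 11.6 and 11.7 CPM in AMLN-fed TSP1F/F mice. It was at 1.97, 0.387, 1.75 and 1.43 CPM in LF-fed and 3.34, 3.62, 2.23 and 4.69 CPM in AMLN-fed TSP1ΔPf4 mice. Overlap between diets was absent in both genotypes, although the gap was as small as 4.34 to 4.48 CPM in TSP1F/F mice. On AMLN the log2 fold change between genotypes was -1.25 (SE 0.42, adjusted p = 0.0921) by edgeR, with TSP1F/F mice 3 and 4 above the rest. Tlr6, a partner of Tlr2 for diacylated ligands, was at 0.313, 0.375, 0 and 0.375 CPM in LF-fed and 1.91, 0.269, 1.86 and 0.817 CPM in AMLN-fed TSP1F/F mice. It was undetected in LF-fed TSP1ΔPf4 liver, with values of 0, 0, 0 and 0 CPM in LF-fed and 0.467, 1.15, 0.223 and 1.08 CPM in AMLN-fed TSP1ΔPf4 mice. Its AMLN mean there was 4.57 times the LF floor. Tlr1, the other partner, was listed in TSP1F/F mice only and did not overlap between diets.

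The single-stranded RNA receptors Tlr7 and Tlr8 are neighbours on chromosome X. Tlr7 was at 0.887, 0, 1.16 and 1.05 CPM in LF-fed and 1.69, 1.48, 3.85 and 7.57 CPM in AMLN-fed TSP1F/F mice. It was at 0.903, 0.87, 1.23 and 0.318 CPM in LF-fed and 1.03, 2.55, 3.19 and 1.98 CPM in AMLN-fed TSP1ΔPf4 mice. Tlr8 was at 0, 0.268, 0.165 and 0 CPM in LF-fed and 1.42, 1.03, 2.16 and 3.81 CPM in AMLN-fed TSP1F/F mice, and at 0, 0.241, 0.642 and 0.265 CPM in LF-fed and 0.5, 0.534, 1.75 and 0.947 CPM in AMLN-fed TSP1ΔPf4 mice. For both genes the diets separated in TSP1F/F mice and overlapped in TSP1ΔPf4 mice, and the genotypes overlapped on AMLN. The interaction was -0.82 (SE 1.09, adjusted p = 0.854) for Tlr7 and -2.58 (SE 1.41, adjusted p = 0.414) for Tlr8 by edgeR, so a different diet response was not shown. Tlr5, the flagellin receptor, was listed in TSP1ΔPf4 mice at 7.81, 10.9, 5.08 and 9.55 CPM in LF-fed and 15.4, 15.4, 16 and 8.66 CPM in AMLN-fed TSP1ΔPf4 mice, where AMLN-fed mouse 4 lay among the LF-fed mice.

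The cytosolic sensors were listed in 1 genotype each, 5 in TSP1F/F and 3 in TSP1ΔPf4 mice, so none could be compared between genotypes. Naip6, which recognises flagellin and activates the Nlrc4 inflammasome, was at 0.365, 0.429, 1.1 and 0.15 CPM in LF-fed and 1.75, 1.8, 2.49 and 2.23 CPM in AMLN-fed TSP1F/F mice. The groups did not overlap, with a log2 fold change of 2.02 (SE 0.70, adjusted p = 0.416) by edgeR. Naip2, a sensor of bacterial secretion system rods, was at 4.57, 4.4, 5.14 and 5.46 CPM in LF-fed and 8.17, 7.24, 7.49 and 10.6 CPM in AMLN-fed TSP1ΔPf4 mice, also without overlap, at 0.77 (SE 0.24, adjusted p = 0.184). Nlrp3, the inflammasome sensor of membrane damage and crystals, was at 0.212, 0, 0.525 and 0 CPM in LF-fed and 0.801, 0.946, 1.27 and 0.818 CPM in AMLN-fed TSP1ΔPf4 mice and did not overlap, at 2.40 (SE 0.85, adjusted p = 0.244).

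Nlrp12, a NOD-like receptor known as a brake on inflammatory signalling, was at 51.9, 67.8, 133 and 107 CPM in LF-fed and 39.4, 73.5, 37.3 and 43.8 CPM in AMLN-fed TSP1F/F mice. Mouse 2 on AMLN lay above 2 LF-fed mice, so the groups overlapped, and the log2 fold change was -0.89 (SE 0.34, adjusted p = 0.508) by edgeR. Its mean level per length, 11.9 FPKM on LF and 6.43 FPKM on AMLN, was the second highest of the 57 members on LF, after Tyrobp at 12.6 FPKM.

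**Figure D2:**
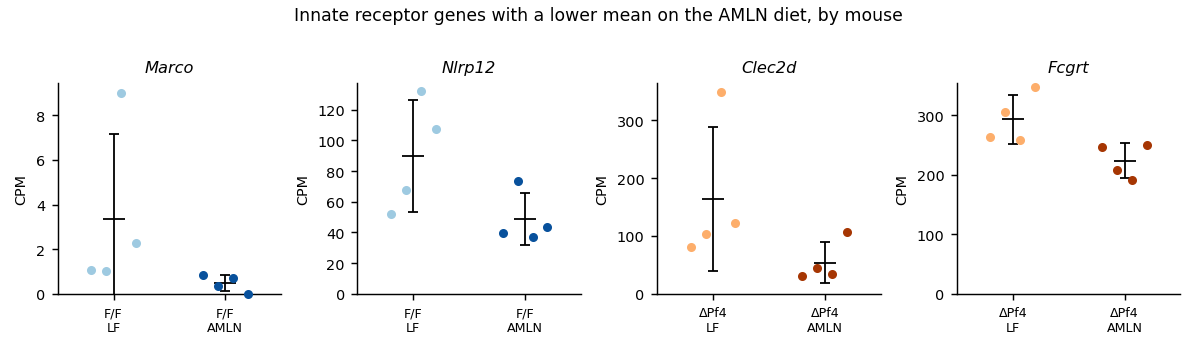
CPM per mouse (points, linear y axis from 0) of the 4 innate receptor genes with a lower mean on the AMLN diet, in the genotype that listed each, with the mean and SD of 4 mice in black (lower bars end at 0). Marco and Fcgrt do not overlap between diets, while Nlrp12 and Clec2d do, and single LF-fed mice stand out for Marco (8.99 CPM) and Clec2d (348 CPM).

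Of the receptors for immunoglobulin G, the activating Fcgr3, which signals through Fcer1g, was at 1.3, 5.2, 3.86 and 2.1 CPM in LF-fed and 10.3, 11.3, 11.3 and 27.4 CPM in AMLN-fed TSP1F/F mice. It was at 2.55, 2.32, 7.24 and 3.61 CPM in LF-fed and 5.47, 6.54, 8.07 and 10.6 CPM in AMLN-fed TSP1ΔPf4 mice. The diets did not overlap in TSP1F/F mice, but LF-fed TSP1ΔPf4 mouse 3 lay above 2 AMLN-fed mice. Fcgr4, the activating receptor beside it on chromosome 1, was at 2.4, 3.27, 7.55 and 2.78 CPM in LF-fed and 10.1, 10.9, 11.1 and 16.5 CPM in AMLN-fed TSP1F/F mice. It was at 1.17, 3.72, 2.98 and 3.29 CPM in LF-fed and 7.11, 8.84, 6.92 and 8.61 CPM in AMLN-fed TSP1ΔPf4 mice. Here the diets separated in both genotypes and, on AMLN, all TSP1ΔPf4 mice lay below all TSP1F/F mice. The genotype difference on AMLN was -0.97 (SE 0.38, adjusted p = 0.132) for Fcgr3 and -0.63 (SE 0.29, adjusted p = 0.199) for Fcgr4 by edgeR.

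Fcgrt is matched by its symbol only, since the neonatal Fc receptor recycles immunoglobulin G and albumin and is known from endothelium and hepatocytes. It was at 263, 306, 259 and 347 CPM in LF-fed and 246, 208, 191 and 250.2 CPM in AMLN-fed TSP1ΔPf4 mice. All AMLN-fed mice lay below all LF-fed mice, at a log2 fold change of -0.39 (SE 0.20, adjusted p = 0.543) by edgeR, which was not called and lies above the median of all genes tested in these mice.

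The formyl peptide receptors guide phagocytes to bacterial and mitochondrial peptides. Fpr2 was at 0, 0.482, 1.27 and 0.525 CPM in LF-fed and 0.908, 3.14, 1.06 and 3.59 CPM in AMLN-fed TSP1F/F mice. It was at 0.212, 0.241, 0 and 0 CPM in LF-fed and 0.434, 1.19, 0.988 and 1.51 CPM in AMLN-fed TSP1ΔPf4 mice, without overlap between diets in that genotype and with overlap in the other. Fpr1 was listed in TSP1ΔPf4 mice, at 0.637, 0.145, 1.4 and 0.637 CPM in LF-fed and 1.9, 2.47, 1.5 and 3.32 CPM in AMLN-fed TSP1ΔPf4 mice, again without overlap. Treml4, a TREM-like receptor of macrophages and dendritic cells that binds dead cells, was at 1.04, 0.268, 1.71 and 0.976 CPM in LF-fed and 3.3, 2.47, 7.75 and 3.65 CPM in AMLN-fed TSP1F/F mice. It was at 0.584, 1.45, 1.23 and 2.23 CPM in LF-fed and 2.97, 4.69, 3.6 and 5.86 CPM in AMLN-fed TSP1ΔPf4 mice. Treml4 separated the diets in both genotypes and had the smallest fitted genotype difference on AMLN of the 22 members tested, a log2 fold change of -0.01 (SE 0.44, adjusted p = 0.989) that turned positive under both other scalings (0.27 with TMM and 0.38 with DESeq2).

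The scavenger receptors were listed in TSP1F/F mice only and differed in direction. Msr1, the class A receptor for modified lipoproteins, was at 3.6, 6.86, 10.8 and 4.24 CPM in LF-fed and 15.1, 13.3, 15.2 and 49.99 CPM in AMLN-fed TSP1F/F mice. Marco, a related receptor of resident macrophages, was at 1.04, 1.02, 8.99 and 2.29 CPM in LF-fed and 0.847, 0.359, 0.704 and 0 CPM in AMLN-fed TSP1F/F mice. Neither gene overlapped between diets, Msr1 being higher on AMLN and Marco lower. The log2 fold change was 1.88 (SE 0.52, adjusted p = 0.253) for Msr1 and -2.75 (SE 1.03, adjusted p = 0.484) for Marco by edgeR, and LF-fed mouse 3 carried most of the LF mean of Marco.

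In the CD300 cluster on chromosome 11, Cd300c2 was the member called. This activating receptor was at 2.66, 3.32, 7.72 and 2.29 CPM in LF-fed and 8.83, 9.88, 15.7 and 37 CPM in AMLN-fed TSP1F/F mice. It was at 1.75, 2.37, 4.61 and 2.33 CPM in LF-fed and 4.64, 3.25, 3.03 and 9.56 CPM in AMLN-fed TSP1ΔPf4 mice. The diets did not overlap in TSP1F/F mice but did in TSP1ΔPf4 mice, and on AMLN TSP1ΔPf4 mouse 4 lay above the lowest TSP1F/F mouse. Between the genotypes on AMLN the log2 fold change was -1.80 (SE 0.52, adjusted p = 0.0474) in the quasi-likelihood test of edgeR, adjusted after Benjamini and Hochberg. Leaving out TSP1F/F mouse 4 gave -1.17 with an adjusted p of 0.157 in the same test.

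Cd300ld, an activating neighbour, was at 2.4, 4.66, 9.71 and 1.24 CPM in LF-fed and 11.7, 11.9, 17.1 and 27.2 CPM in AMLN-fed TSP1F/F mice. It was at 2.28, 3.09, 5.49 and 3.18 CPM in LF-fed and 6.04, 8.68, 7.33 and 11 CPM in AMLN-fed TSP1ΔPf4 mice. Both diet comparisons were without overlap, and on AMLN the 4 TSP1ΔPf4 mice, at most 11 CPM, lay below the 4 TSP1F/F mice, at least 11.7 CPM, with a log2 fold change of -1.04 (SE 0.35, adjusted p = 0.0903) by edgeR. Cd300lb, which signals through Tyrobp, was at 0.209, 0.429, 1.21 and 0.0751 CPM in LF-fed and 1.94, 6.78, 5.76 and 11.7 CPM in AMLN-fed TSP1F/F mice. It was at 0.159, 0.145, 0.409 and 0.53 CPM in LF-fed and 2.73, 1.4, 2.14 and 1.16 CPM in AMLN-fed TSP1ΔPf4 mice. It separated the diets in both genotypes, while on AMLN TSP1F/F mouse 1 lay among the TSP1ΔPf4 mice, with a fitted value of -1.80 (SE 0.53, adjusted p = 0.0522). The inhibitory Cd300a and the activating Cd300e were listed in TSP1F/F mice, where neither overlapped between diets.

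Siglec1, a sialic acid receptor of macrophages, was at 0.574, 1.61, 0.937 and 1.69 CPM in LF-fed and 8.71, 3.82, 8.98 and 4.08 CPM in AMLN-fed TSP1F/F mice. It was at 1.17, 1.06, 0.117 and 1.27 CPM in LF-fed and 4.37, 4.89, 7.49 and 3.32 CPM in AMLN-fed TSP1ΔPf4 mice. The diets did not overlap in either genotype, and the genotypes overlapped on AMLN. The fitted diet difference was 2.40 (SE 0.53, adjusted p = 0.12) in TSP1F/F and 2.46 (SE 0.53, adjusted p = 0.0943) in TSP1ΔPf4 mice by edgeR, and the interaction was 0.05 (SE 0.76, adjusted p = 0.99). Siglecf, an inhibitory Siglec of eosinophils and some macrophages, was at 0 in all 8 LF-fed mice and too low for the tests. Its AMLN values were 0.242, 0, 0.931 and 2.45 CPM in TSP1F/F and 0.3, 0.247, 0.383 and 0.344 CPM in TSP1ΔPf4 mice. The means were 6.09 and 2.00 times the LF floor.

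The SIRP-beta genes, activating partners of Tyrobp, were listed in TSP1F/F mice. Sirpb1b was at 0, 0, 0.386 and 0 CPM in LF-fed and 0.696, 1.57, 1.56 and 1.91 CPM in AMLN-fed TSP1F/F mice. The groups did not overlap, and the fitted log2 fold change was 3.90 (SE 1.22, adjusted p = 0.329) by edgeR. Sirpb1a did not overlap between diets either, whereas Sirpb1c did.

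Among the leukocyte immunoglobulin-like receptors, Lilrb4a, an inhibitory receptor of macrophages, was at 0.574, 0, 2.21 and 0.413 CPM in LF-fed and 3.21, 2.74, 4.18 and 10.2 CPM in AMLN-fed TSP1F/F mice. It was at 0.478, 0.58, 0.409 and 0.53 CPM in LF-fed and 0.367, 0.74, 0.797 and 3.7 CPM in AMLN-fed TSP1ΔPf4 mice. In TSP1F/F mice the diets did not overlap. In TSP1ΔPf4 mice 1 of 4 AMLN-fed mice reached the TSP1F/F range, at 3.70 CPM, and the other 3 were at most 0.797 CPM, within or near the LF range. On AMLN the log2 fold change between genotypes was -1.86 (SE 0.70, adjusted p = 0.121) by edgeR. Its neighbour Lilr4b, a close relative, was at 1.67, 1.98, 3.53 and 1.5 CPM in LF-fed and 9.59, 8.04, 10.8 and 28.1 CPM in AMLN-fed TSP1F/F mice, without overlap, and had the lowest adjusted p of the TSP1F/F members, with a log2 fold change of 2.7 (SE 0.50, adjusted p = 0.0724). Lilra5, an activating receptor, was at 0.626, 4.07, 4.96 and 0.976 CPM in LF-fed and 6.63, 5.43, 4.68 and 13.3 CPM in AMLN-fed TSP1F/F mice, where the groups overlapped, and Pirb, the inhibitory receptor for MHC class I, overlapped as well.

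The KLR genes include receptors of NK and T cells. Klra2, a member of the Ly49 family known from myeloid cells, was at 1.62, 3.16, 4.41 and 0.413 CPM in LF-fed and 3.36, 6.42, 5.06 and 17.8 CPM in AMLN-fed TSP1F/F mice. It was at 1.91, 0.0483, 0.934 and 0.424 CPM in LF-fed and 1.7, 2.51, 1.72 and 4.91 CPM in AMLN-fed TSP1ΔPf4 mice. The diets overlapped in both genotypes, and the AMLN groups overlapped between genotypes, at a log2 fold change of -1.58 (SE 0.55, adjusted p = 0.0996) by edgeR. Klrd1, the NK receptor subunit CD94, was at 0, 0.161, 0.662 and 0.113 CPM in LF-fed and 1.06, 1.44, 0.906 and 5.12 CPM in AMLN-fed TSP1F/F mice and did not overlap, with a log2 fold change of 3.18 (SE 1.05, adjusted p = 0.383). Klra3, Klrb1b and Klri2 were at 0 in all LF-fed TSP1F/F mice, and their AMLN means were 3.84, 2.01 and 3.82 times the floor of 3 counts per library. No NK cell marker from a fixed list of 8 was listed in both genotypes.

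The MS4A genes encode membrane proteins with several spans, some of which are macrophage markers. Ms4a6c was at 0, 0.75, 2.1 and 0.3 CPM in LF-fed and 2.96, 2.69, 5.36 and 13 CPM in AMLN-fed TSP1F/F mice. It was at 0.212, 0.29, 0.175 and 0.743 CPM in LF-fed and 2.47, 1.56, 1.75 and 2.63 CPM in AMLN-fed TSP1ΔPf4 mice. It separated the diets in both genotypes, and on AMLN all TSP1ΔPf4 mice lay below all TSP1F/F mice, although by 2.63 against 2.69 CPM at the nearest point. Ms4a6d was at 1.98, 1.13, 1.32 and 1.16 CPM in LF-fed and 4.24, 6.78, 7.6 and 23.1 CPM in AMLN-fed TSP1F/F mice. It was at 0.956, 1.64, 1.34 and 0.212 CPM in LF-fed and 2.87, 2.02, 3.09 and 5.04 CPM in AMLN-fed TSP1ΔPf4 mice. The diets did not overlap in either genotype, and on AMLN a single TSP1ΔPf4 mouse, number 4, lay above the lowest TSP1F/F mouse. Between the genotypes on AMLN the log2 fold change was -1.50 (SE 0.53, adjusted p = 0.0996) for Ms4a6c and -1.68 (SE 0.52, adjusted p = 0.0678) for Ms4a6d by edgeR. Ms4a7 was at 0, 0.59, 1.65 and 0 CPM in LF-fed and 2.27, 3.32, 4.75 and 7.08 CPM in AMLN-fed TSP1F/F mice and had the largest fitted diet difference of the family in TSP1F/F mice, at 2.97 (SE 1.16, adjusted p = 0.513).

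Tyrobp, the adaptor of many activating members, had the highest level per length of the 57 members in TSP1F/F liver, with means of 12.6 FPKM on LF and 50.6 FPKM on AMLN. It was at 3.03, 7.61, 19.4 and 3.6 CPM in LF-fed and 22.4, 26.6, 25.5 and 60.6 CPM in AMLN-fed TSP1F/F mice. The groups did not overlap, at a log2 fold change of 2.01 (SE 0.59, adjusted p = 0.292) by edgeR. Ly86, which forms a complex with the TLR-like receptor Cd180, was at 0.887, 2.84, 9.21 and 1.69 CPM in LF-fed and 6.44, 7.18, 10.8 and 27.3 CPM in AMLN-fed TSP1F/F mice. It was at 0.425, 2.17, 1.46 and 1.8 CPM in LF-fed and 5.27, 6.83, 5.74 and 8.83 CPM in AMLN-fed TSP1ΔPf4 mice. The diets overlapped in TSP1F/F mice through LF-fed mouse 3 and did not in TSP1ΔPf4 mice, where the log2 fold change was 2.18 (SE 0.43, adjusted p = 0.0762). Aif1, a marker of activated macrophages, was listed in TSP1F/F mice and did not overlap between diets.

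**Figure D3:**
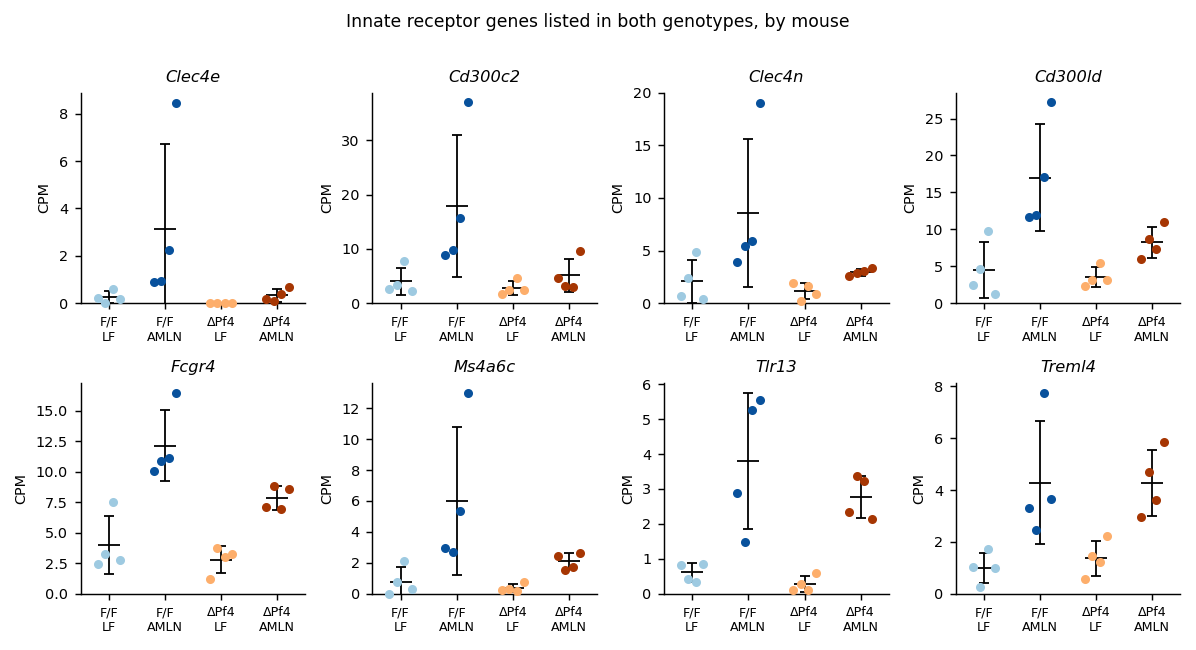
CPM per mouse (points, linear y axis from 0) of 8 innate receptor genes listed in both genotypes, for LF-fed and AMLN-fed TSP1F/F (blue) and TSP1ΔPf4 mice (orange and brown), with the mean and SD of 4 mice in black (lower bars end at 0). AMLN-fed TSP1F/F mouse 4 is the highest point in each panel except Treml4, where mouse 3 is, at 8.44 CPM for Clec4e and 37 CPM for Cd300c2, and the AMLN-fed TSP1ΔPf4 mice lie below the AMLN-fed TSP1F/F mice for Clec4e, Clec4n, Cd300ld, Fcgr4 and Ms4a6c.

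The genotypes were compared on the AMLN diet to ask whether loss of platelet TSP1 goes with other receptor levels in the diseased liver. All 23 members listed in both genotypes had a lower mean in TSP1ΔPf4 than in TSP1F/F mice, where 73.4% of the 752 genes listed in both were lower and 26.6% higher. The 5 without overlap were Cd300ld, Clec4e, Clec4n, Fcgr4 and Ms4a6c (12.1% of all such genes) and none lay the other way (2.53%). Of the 22 tested (Siglecf did not pass the filter), edgeR called 2 as lower, Cd300c2 and Clec4e, a share of 9.09% against a background of 9.0%. At an unadjusted p under 0.05, 0 were higher (background 2.59%) and 12 lower (22.6%): Cd300c2, Cd300lb, Cd300ld, Clec4b1, Clec4e, Clec4n, Fcgr3, Klra2, Lilrb4a, Ms4a6c, Ms4a6d and Tlr2. The median log2 fold change was -1.11 for the members and -0.376 for all 733 genes tested. Clec4e and Clec4b1, which enter these counts and the median, passed the filter through their TSP1F/F counts. In AMLN-fed TSP1ΔPf4 mice they had 2 to 16 and 0 to 21 counts. Their lower values are thus not independent of the filter.

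With other scalings, which brought the all-gene median nearer to 0, the medians were -0.806 for the members and -0.0996 for all genes with TMM factors, and -0.756 and -0.0325 with DESeq2. All 22 fitted values lay below 0 in the reported fit (73.1% of all genes tested), and 21 of 22, all but Treml4, did with either other scaling (56.2% and 52.3% of all genes). In each of the 3, 20 of 22 lay below the median of all genes (49.9% of all genes in the reported fit). DESeq2 called 3 members (9.97% of all genes tested). With same-numbered mice fitted as blocks edgeR called 10 (15.8%), although the numbers were not taken as a pairing. With TMM factors edgeR called 0 members, and without AMLN-fed TSP1F/F mouse 4 it called 0 and the member median was -0.72. The mean was lower in all 23 members without that mouse too.

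**Figure D4:**
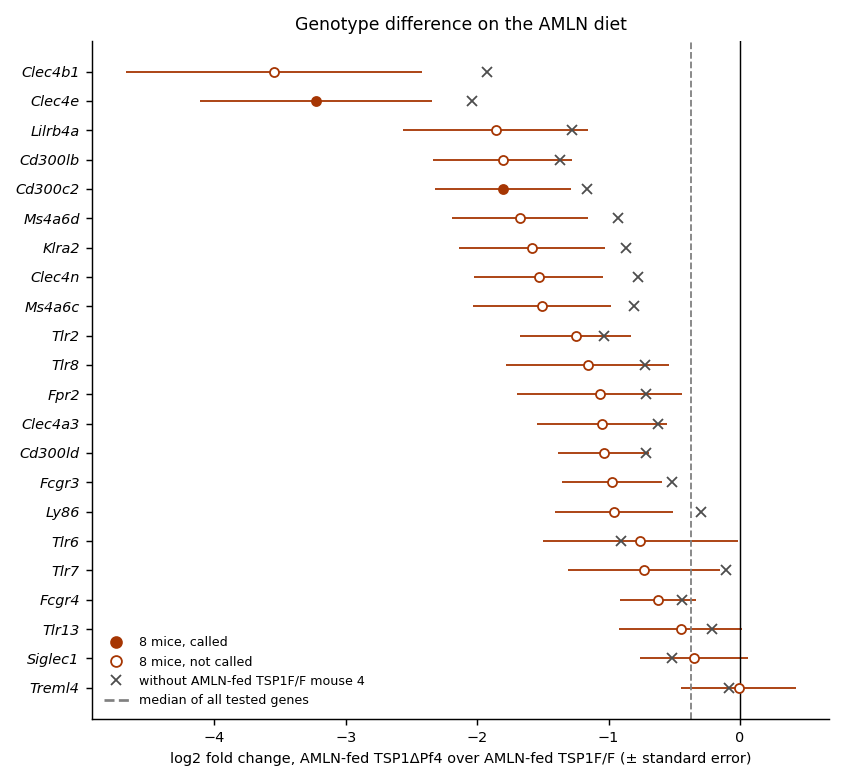
Fitted log2 fold change between AMLN-fed TSP1ΔPf4 and AMLN-fed TSP1F/F mice (x axis, log2 scale) for the 22 tested members (y axis), with bars for 1 standard error of edgeR's fit to 4 against 4 mice, crosses for the fit without TSP1F/F mouse 4 and a dashed line at the median of all 733 genes tested. All points lie left of 0, with Treml4, positive under the other scalings, nearest to it at -0.01 and Clec4b1 farthest at -3.54, and the 2 filled points, Clec4e and Cd300c2, are the genes called.

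Macrophage markers were lower in the same mice. The 8 markers of monocyte-derived macrophages summed to 381 to 1894 CPM in AMLN-fed TSP1F/F and 124 to 215 CPM in AMLN-fed TSP1ΔPf4 mice, and 5 Kupffer cell markers (Vsig4, Cd5l, C1qa, C1qb and C1qc) to 378 to 882 CPM and 224 to 294 CPM. edgeR called 4 of the 8 and 1 of the 5 as lower (background 9.0%). The 23 receptor genes summed to 95.97, 106, 151 and 299 CPM on AMLN in TSP1F/F mice and to 59.3, 70.1, 68.9 and 94.7 CPM on AMLN in TSP1ΔPf4 mice. They did not overlap, but only by 94.7 against 95.97 CPM at the nearest point. Of single genes listed in both genotypes, 12.1% lay lower in this way. Under this scaling by library total the median of all genes tested was -0.376, and sums under other scalings were not taken. The sums on LF were 20.04, 36.1, 64.6 and 19.4 CPM in TSP1F/F and 18.8, 21.8, 32.3 and 25.04 CPM in TSP1ΔPf4 mice, which overlapped. The 2 sinusoidal endothelial markers listed in both genotypes, Stab2 and Lyve1, summed to 30.7 to 36.8 CPM and 29.3 to 43.8 CPM on AMLN. The 3 stellate cell markers listed in both, Col1a1, Col3a1 and Pdgfrb, summed to 77.6 to 165 CPM and 21.9 to 82.2 CPM. Of these, edgeR called only Col3a1, a fibrillar collagen, as lower, at a log2 fold change of -1.72 (SE 0.39, adjusted p = 0.0182). Col1a1 was at -0.08 (SE 0.72, adjusted p = 0.958) and Pdgfrb at -0.07 (SE 0.40, adjusted p = 0.93) in the same test. The part of these markers in the receptor results was not tested.

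On the LF diet no genotype difference was detected. Of the 23 members, 13 passed the filter and edgeR called 0 (background 0.0%, 0 of 640 genes), with 0 of the 13 and 44 of the 640 at an unadjusted p under 0.05 (3.91% of all genes higher and 2.97% lower). The mean was lower in TSP1ΔPf4 mice in 17 of 23 members (47.6% of all genes listed in both) and higher in 5 (50.5%). The member median was a log2 fold change of -0.426 against 0.0269 over all genes tested. The genotypes overlapped in all 23 (3.19% of listed genes lay apart as higher and 1.33% as lower). The fitted values ran from -1.52 (SE 0.92, adjusted p = 0.676) for Klra2 to 1.24 (SE 1.04, adjusted p = 0.728) for Clec4a3 by edgeR, and without LF-fed TSP1F/F mouse 3 the member median was 0.00433.

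The interaction asks whether the diet difference itself differed between genotypes. edgeR called 0 of 22 members (background 0.409%, 3 of 734 genes), and at an unadjusted p under 0.05 1 of the 22 was higher (background 2.18%) and 0 lower (12.8%). The 1 was Tlr6, at 4.95 (SE 1.93, adjusted p = 0.206), whose fitted value rests on LF-fed TSP1ΔPf4 mice that were all at 0 and is no bound. The value farthest from 0 among members with counts in every group was -2.58 (SE 1.41, adjusted p = 0.414) for Tlr8. A smaller diet response of these receptors in TSP1ΔPf4 mice was thus not shown by a test, with a member median of -0.429 against -0.34 over all genes tested. Only members listed for a diet difference in both genotypes could enter it. The 34 members listed in TSP1F/F mice only and the 12 in TSP1ΔPf4 mice only could not, so the test says nothing about them.

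Genes for proteins that carry the signals of these receptors were examined at the RNA level, from a fixed list of 40. In TSP1F/F mice 20 were listed, all 20 with a fitted log2 fold change above 0 on AMLN (63.4% of all genes tested), and edgeR called 0 of them (background 1.91%), with 18 higher at an unadjusted p under 0.05 (background 53.0%) and a median of 2.07. In TSP1ΔPf4 mice 16 were listed, 15 above 0 (42.9% of all genes tested), with 0 called (background 0.906%), 14 higher and 1 lower at an unadjusted p under 0.05 (background 33.8% and 51.9%) and a median of 1.35. Syk, the kinase downstream of the activating receptors, had log2 fold changes of 2.75 and 1.37, and Spi1, which encodes PU.1, of 2.48 and 1.47. Cd14, the co-receptor of Tlr4, stood at 2.11 and 1.76, and Cd180, the partner of Ly86, at 3.58 and 1.91. The 1 below 0 was Il18, the inflammasome cytokine, at -0.96 in TSP1ΔPf4 mice. On AMLN, all 14 listed in both genotypes had lower fitted values in TSP1ΔPf4 mice (73.1% of all genes tested), with a median of -0.59 against -0.376 over all genes and 0 called (background 9.0%), from -1.15 for Casp1, the inflammasome protease, to -0.045 for Plcg2. At an unadjusted p under 0.05, 3 of the 14 were lower, near the background of 22.6%. Fcer1g, the adaptor of Clec4e, Clec4n and the Fc receptors, was at -0.91.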

How the data were processed

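Liver RNA was sequenced on a NovaSeq with paired reads. The authors' methods name alignment with STAR to mm10, while the submitters' processing notes name HISAT2 and mm10. The counting program, annotation release and strand setting are not given in the sources used here. The deposited tables, 1 per genotype, hold for each mouse read counts per gene, normalised counts divided by a size factor (a signal not used in the tests) and FPKM, beside the authors' p-values and fold changes. The deposited p-value was read only to see that every row was under 0.05, and the fold changes and means were not used. Of the 48 columns of per-mouse values none was left unmatched.

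Library totals were recovered from count, length and FPKM, and CPM is the count divided by that total. Genes were tested on deposited counts with edgeR 4.0.16 (R 4.3.3, limma 3.58.1) by its quasi-likelihood test, scaled by library total after filterByExpr. Diet p-values were adjusted (Benjamini-Hochberg) over the 21900 protein-coding genes of the RefSeq table, since rows with larger p-values are not analysed here, and genotype and interaction p-values over the genes tested. Genes were called at an adjusted p under 0.05 with a log2 fold change beyond 0.25 in either direction. SE is the fold change divided by the root of the F statistic. The tests were tried on simulated counts with known changes. Alternatives were DESeq2 1.42.0, TMM factors, no filter, a replicate block, all 16 mice in 1 fit, other adjustments and leaving out each mouse. No 2 libraries of a group agreed within sampling noise.

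Members, gene lists and tests were chosen with earlier results of these data known. Values in every mouse are given for members listed in both genotypes and, per family and table, for the member with the highest mean FPKM and the one with the largest fitted fold change, and members called or without overlap between genotypes on AMLN are named. Positions and names are those of the deposited tables. Floors cover counting error only, whereas the SE of edgeR's fit also takes in variation between mice. A floor bounds the LF side of a fold change but not the AMLN mean.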

Additional observations from a re-analysis of the deposited data

Results flagged for a closer look

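In 16 of 121 groups of 4 mice tested among 40 named members, 1 mouse lay farther from the others than Dixon's 95% critical value allows, measured as its gap over the group's range, where independent normal values would give about 1 group in 20. In 8 of the 16 it was AMLN-fed TSP1F/F mouse 4, the highest in its group: Clec4b1 at 9.58 CPM, Clec4n at 19.1 CPM, Fcgr3 at 27.4 CPM, Fcgr4 at 16.5 CPM, Klrd1 at 5.12 CPM, Lilr4b at 28.1 CPM, Msr1 at 49.99 CPM and Tyrobp at 60.6 CPM. In 4 it was LF-fed TSP1F/F mouse 3, highest for Fcgr4 (7.55 CPM), Marco (8.99 CPM) and Sirpb1b (0.386 CPM) and lowest for Tlr6 (0 CPM). The remaining 4 were Clec4b1 in LF-fed TSP1F/F mouse 2 (0.858 CPM, highest), Clec2d in LF-fed TSP1ΔPf4 mouse 3 (348 CPM, highest), and in AMLN-fed TSP1ΔPf4 mouse 4 Lilrb4a (3.7 CPM, highest) and Tlr5 (8.66 CPM, lowest). The groups share mice and some hold mostly zeros, such as Sirpb1b on LF, so the count of 16 cannot be set against that rate.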

How the results depend on the processing

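The direction of the members held more widely than their calls. In TSP1F/F mice the diet test called 0 members with edgeR, with TMM factors and with each mouse left out, 14 with DESeq2 (31.0% of all genes tested), 1 without a filter (2.42%), 34 when adjusted over the listed genes (53.6%) and 44 at an unadjusted p under 0.05 (80.2%). In TSP1ΔPf4 mice it called 1 member, and 20 with DESeq2 (36.9%), 7 with TMM factors (3.11%), 0 without a filter, 21 when adjusted over the listed genes (70.8%), 25 at an unadjusted p (85.8%) and 0 to 2 with a mouse left out. Between genotypes on AMLN it called 2 (9.0%), and 3 with DESeq2 (9.97%), 0 with TMM factors, 2 without a filter, 1 with all 16 mice in 1 fit (7.36%), 12 at an unadjusted p (25.2%) and 0 to 6 with a mouse left out. These were 0 without TSP1F/F mouse 3 or 4 or without TSP1ΔPf4 mouse 1, 2 or 3, and 6 and 4 without TSP1F/F mouse 1 and 2. The interaction called 0, and 1 at an unadjusted p. Chosen after seeing the data, leaving out mouse 4 of both AMLN groups gave 11 members without overlap between genotypes in place of 5, while the share of all listed genes went from 12.1% to 20.7%. The causes of these differences were not tested.

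Same-numbered mice did not deviate together in every pair (correlations of -0.32 to 0.248 and -0.443 to 0.247 in the diet comparisons, 0.0928 to 0.387 between genotypes on AMLN and -0.0501 to 0.453 on LF), and 2, 0, 7 and 4 of 8 mice correlated best with their own number, so the numbers were not taken as a pairing. With the replicate block the calls were 0 in TSP1F/F, 0 in TSP1ΔPf4, 10 between genotypes on AMLN (15.8% of all genes tested), 0 on LF and 0 for the interaction.

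Fitted log2 fold changes that changed sign were all uncalled. On AMLN, Treml4 went from -0.01 to 0.38 with DESeq2, 0.27 with TMM factors, 0.0846 with the replicate block and -0.20 to 0.45 with a mouse left out. For the interaction, Fcgr4 was at 0.19 with DESeq2 and 0.18 with TMM factors, and Klra2 at 0.21, 0.19 and, with the block, 0.0757. With a mouse left out the interaction ran from -0.61 to 0.0734 for Fcgr4, -0.53 to 0.77 for Klra2, -0.70 to 3.60 for Clec4b1, -1.59 to 0.0315 for Clec4n, -0.66 to 1.02 for Ly86, -1.54 to 0.31 for Ms4a6c and -0.31 to 0.28 for Siglec1. On LF the range was -0.89 to 0.00433 for Cd300c2, -0.67 to 0.35 for Cd300ld, -1.16 to 0.051 for Clec4n, -0.14 to 0.70 for Fcgr3 and -0.32 to 0.36 for Tlr7. Members with few counts, such as Clec4e, Clec4b1 and Siglecf, are limited by depth.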
